A study of Mus musculus with 4 samples.

Results

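The enzymes of heme synthesis were examined in the RNA of mouse myeloid cells with and without a conditional deletion of Pdcd1, the gene for PD-1. The 8 genes were taken by name, as the rows of the deposited tables called Alas1, Alas2, Alad, Uros, Urod, Cpox, Ppox and Fech, out of 24706 genes in all. There were 4 libraries, 2 labelled wt and 2 labelled cko, with 1 expression table each. The wt libraries (wt1 and wt2) stand for PD-1f/f mice and the cko libraries (cko1 and cko2) for PD-1f/f; LysM-Cre mice. Both groups carry LoxP sites around an exon of Pdcd1, and the cko mice also carry Cre recombinase under LysM, the lysozyme gene active in granulocytes, monocytes and macrophages. The source is described as CD11b+ cells sorted from the liver at postnatal day 3 in one place and as liver RNA at postnatal day 2 in another, and the control is called wild type in one and PD-1f/f in the other. Sex, and the number of animals per library, are not given in the sources used here. The labels do not say whether the libraries of a group came from separate animals. Xist, from the inactive X chromosome, was at 4.91 FPKM (reads scaled to the length of the gene and the total of the library) in wt1 and 0.0119 in wt2 and Y-linked Ddx3y at 0.00866 and 24.9, so wt1 and wt2 are not repeats of 1 sample. In cko1 and cko2 Xist was at 6.67 and 7.98 FPKM and Ddx3y at 0, so these genes do not tell cko1 from cko2. For cko1 and cko2 the spread that enters the p-values may be technical. Only wt2 had Ddx3y above 1 FPKM, so the groups were not balanced in it. The part of this imbalance in the group differences was not tested.

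Heme is made from glycine and succinyl-CoA in a chain of enzymes that starts and ends in the mitochondrion and runs through the cytosol in between. The first and rate-limiting step, 5-aminolevulinate synthase, has a pair of genes. Alas1 serves all tissues and is repressed by heme, whereas Alas2, on the X chromosome, serves red cell precursors and is controlled by iron. Alad then joins 2 molecules of 5-aminolevulinate into porphobilinogen, Uros later closes the tetrapyrrole ring, Urod trims its side chains, Cpox and Ppox oxidise it to protoporphyrin, and Fech inserts the iron. In the newborn liver, which still makes blood, red cell precursors are the main site of heme synthesis, while granulocytes and macrophages need heme for myeloperoxidase, the NADPH oxidase and mitochondrial cytochromes.

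The members lie on separate chromosomes except for Alad and Urod, which share chromosome 4. In GRCm38 coordinates, Alas1 (ENSMUSG00000032786) spans chr9:106233455-106248654 on the minus strand and Alas2 (ENSMUSG00000025270) spans chrX:150547375-150570638 on the plus strand. The start regions of both synthase genes and of Cpox are shown because these genes differ in the direction of their group difference. Each window runs from 250 bases before to 50 bases after the RefSeq start (GRCm38.p6) and is written 5′ to 3′ on the strand of the gene. Capitals mark GATAA, the core of the sequence bound by the erythroid factor GATA1, and CACCC, the core of the sequence bound by KLF1, each on either strand (TTATC and GGGTG on the other). The Alas2 window is chrX:150547167-150547466 (plus strand), the Alas1 window is chr9:106247681-106247980 (minus strand) and the Cpox window is chr16:58669958-58670257 (plus strand).
Alas2: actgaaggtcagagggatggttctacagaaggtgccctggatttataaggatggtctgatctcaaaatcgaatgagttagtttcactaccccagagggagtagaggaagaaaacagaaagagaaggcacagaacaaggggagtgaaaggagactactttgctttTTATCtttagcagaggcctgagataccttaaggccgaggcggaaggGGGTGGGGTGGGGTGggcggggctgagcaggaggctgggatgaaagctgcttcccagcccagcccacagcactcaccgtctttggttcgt
Alas1: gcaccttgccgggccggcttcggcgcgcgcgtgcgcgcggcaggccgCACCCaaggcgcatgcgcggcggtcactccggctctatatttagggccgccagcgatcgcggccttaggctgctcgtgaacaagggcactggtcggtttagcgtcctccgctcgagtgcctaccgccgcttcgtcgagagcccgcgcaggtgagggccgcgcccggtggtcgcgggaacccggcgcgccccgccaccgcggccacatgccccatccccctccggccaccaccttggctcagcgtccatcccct
Cpox: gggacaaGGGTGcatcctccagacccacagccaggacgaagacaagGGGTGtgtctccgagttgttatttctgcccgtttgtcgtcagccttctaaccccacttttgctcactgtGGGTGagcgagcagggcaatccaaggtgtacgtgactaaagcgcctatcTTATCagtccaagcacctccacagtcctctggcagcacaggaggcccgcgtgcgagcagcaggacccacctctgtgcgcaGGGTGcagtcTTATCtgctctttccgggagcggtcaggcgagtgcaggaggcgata
The Alas2 window held 1 GATAA and 3 CACCC matches, the Alas1 window 0 and 1, and the Cpox window 2 and 4. Of all 32851 RefSeq windows of this length, 25.4% held GATAA and 57.5% held CACCC. Windows of 7 of the 8 members were searched, and Alas1, Alad and Uros had 2 each. The 3 CACCC matches of Alas2 adjoin without overlap. Of the Alas1 windows the one at which more GENCODE transcripts start is shown, and the other also held 0 GATAA matches. Within 50 bases of the RefSeq start, 2 GENCODE transcripts begin for each of the Alas1 and Alas2 windows shown and 0 for the Cpox window. Among the remaining members GATAA occurred in 1 of the 2 Uros windows and not in those of Alad, Urod or Ppox. These matches are a description of the letters, not of binding.

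Alas2 transcripts also carry an iron-responsive element near their 5′ end, a hairpin on which the iron regulatory proteins hold back translation when iron is scarce. It is shown because Alas2 and not Alas1 is known for it. The letters of its loop, CAGTG and 1 further base, were found at chrX:150547470-150547475 (GRCm38), in the 5′ untranslated part, and are in capitals in the following stretch of chrX:150547456-150547483.
Alas2 iron-responsive element: ctttggttcgtcctCAGTGCagggcaac
The search asked for C, 5 bases of any kind, CAGTG and 1 base of any kind within the first 150 bases of a protein-coding transcript, on the gene strand only. Both coding transcripts of Alas2 and none of those of Alas1 held it, as did 2 Uros transcripts. Over all genes with a protein-coding transcript, 10.9% held it. The iron regulatory proteins themselves were expressed in every library. Aco1 stood at 4.74 FPKM in wt1, 6.89 in wt2, 6.005 in cko1 and 6.14 in cko2. Ireb2 stood at 4.55 and 4.17 FPKM in wt1 and wt2 and at 5.11 and 5.01 in cko1 and cko2. Neither gene had an unadjusted p under 0.05.

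Sequencing depth, worked out from the step between FPKM values, was 17691505 to 22212407 counted reads per library. Pdcd1 itself stood at 28.5 FPKM in wt1, 34.7 in wt2, 17.1 in cko1 and 21.4 in cko2, so that transcripts remained in both (log2 fold change -0.69, adjusted p = 0.218 from limma). A value over the whole gene does not check the floxed exon by itself. Itgam, which encodes CD11b, had 48.5 to 54.3 FPKM, and Lyz2 and S100a9, which mark myeloid cells, were at 8127 FPKM or more in all libraries. Hnf4a, a defining hepatocyte gene, had at most 0.131 FPKM and Alb 6.13 to 12.4 FPKM, while Apoa1 was higher at 30.9 and 48.1 FPKM in wt1 and wt2 and at 14.8 and 18.4 in cko1 and cko2. wt2 was the only library with Y-linked transcripts above 1 FPKM. Groups were compared with limma on log2(FPKM + 1) over the 10779 genes whose mean FPKM reached 1, and p-values were adjusted over all of them by the Benjamini-Hochberg method. A fold change on this scale is understated for genes with low values. All 8 members passed the filter. With 2 libraries per group, an exact two-sided permutation test of a single value cannot go below p = 0.333.

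Every library contained transcripts of all 8 enzymes, over a range from 2.25 to 249.7 FPKM. The 2 synthase genes were highest. In wt, Alas2 came before Alas1, Fech, Urod, Alad, Ppox, Uros and Cpox, in that order in both libraries. In cko, Alas1 came first and Alas2 second in both libraries, and Cpox came before Uros. Several neighbours in these orders were not separated by their spread. The lowest Alas2 value of wt (116 FPKM) lay close to the highest Alas1 value (115 FPKM), Fech and Urod overlapped in wt, and Urod and Alad overlapped in cko. Every level is scaled to a gene length, so these orders depend on the lengths used as well. They were 6174 bases for Alas1 and 2403 for Alas2. For Fech and Cpox the length the authors used had to be worked out, since GENCODE M21 gives other positions for both. For Fech whole reads came out at a length of 2901 bases, whereas its exons in that annotation cover 13838 bases. The plot of levels by library shows Alas1 and Alas2 crossing between the groups in FPKM. In reads, before division by gene length, Alas1 was above Alas2 in every library (15738 and 8445 in wt1, 13089 and 5250 in wt2).

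**Figure D1:**
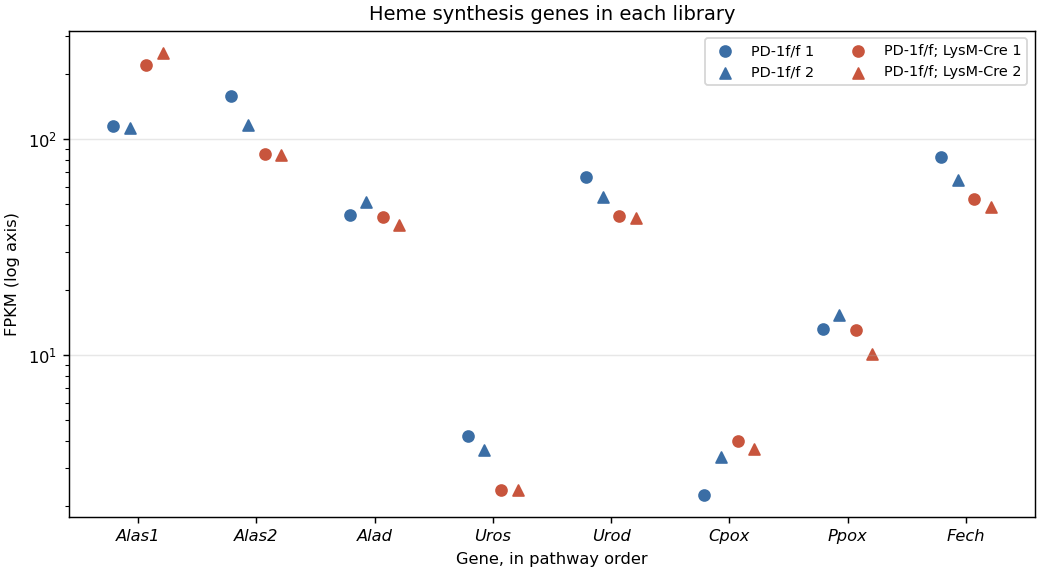
FPKM (log axis) of the 8 heme synthesis enzymes in pathway order; circles and triangles are replicates 1 and 2, blue wt (PD-1f/f) and red cko (PD-1f/f; LysM-Cre). Alas1 lies between 219.8 and 249.7 in the red libraries and between 112.6 and 114.8 in the blue ones, and most other genes are lower in red.

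At the head of the pathway, the synthase genes differed in opposite directions. Alas1 stood at 115 FPKM in wt1, 113 in wt2, 219.8 in cko1 and 249.7 in cko2. Both cko libraries were above both wt libraries, and the 2 wt libraries were close to each other. The means were 114 ± 1.5 FPKM (SD, n = 2) in wt and 235 ± 21.2 FPKM (SD, n = 2) in cko, a ratio of 2.06. The log2 fold change was 1.04 (95% interval 0.69 to 1.38, standard error 0.14, adjusted p = 0.183 from limma). By unadjusted p (4.17e-04) Alas1 ranked number 20 of all tested genes. It was the 1 member past |log2FC| above 1 with an unadjusted p under 0.01, a threshold that 2.29% of all tested genes passed, 1.88% upward and 0.408% downward. This call was lost without cko2, where the log2 fold change was 0.94, and after median-of-ratios scaling (0.92) or quantile normalization (0.90), where it was the fold change that came under 1. In the 465 exon bases (7.53%) that Alas1 shares with 4930500F10Rik on the other strand, reads of both genes cannot be told apart unless the counting used strand, which is not stated. 4930500F10Rik had 0.0736 to 0.567 FPKM.

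Alas2 stood at 158 FPKM in wt1, 116 in wt2, 85.6 in cko1 and 84.2 in cko2. The groups did not overlap, and the wt libraries were farther from each other than the cko libraries were. The values stand for 8445, 5250, 3853 and 3581 reads, so that counting error was small beside this spread (95% Clopper-Pearson intervals 155 to 162 and 113 to 119 FPKM in the wt libraries, for counting error only). The log2 fold change was -0.67 (95% interval -1.13 to -0.21, standard error 0.18, adjusted p = 0.223 from limma; unadjusted p = 0.0126), a 1.62-fold lower mean. Without wt1 it was -0.45, and without wt2, the library with Y-linked transcripts, it was -0.89. Of the exon bases of Alas2, 12.9% are shared with Apex2 on the other strand, which had 0.474 to 0.787 FPKM.

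In FPKM, Alas2 lay above Alas1 in both wt libraries and below it in both cko libraries. Alas2 made up 58.0% and 50.8% of the summed Alas1 and Alas2 FPKM in wt and 28.0% and 25.2% in cko. Which gene is higher, and these shares, depend on the gene lengths (6174 bases for Alas1, 2403 for Alas2). In reads Alas1 was above Alas2 in all 4 libraries. The log2 ratio of Alas2 to Alas1 was 0.25 ± 0.30 (SD, n = 2) in wt and -1.46 ± 0.15 (SD, n = 2) in cko. The difference of -1.72 gave p = 0.333 in the exact permutation test, the smallest p these 4 libraries allow. It ranged from -1.91 (without wt2) to -1.5 (without wt1) over all 14 alternatives in processing. The summed FPKM of both synthases was 273 and 229 in wt and 305 and 334 in cko, so that the cko libraries were higher in total (exact permutation p = 0.333). Multiplying a library by a factor leaves its ratio as it is. Another length for either gene would shift the log2 ratio equally in all libraries and leave its difference between the groups.

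**Figure D2:**
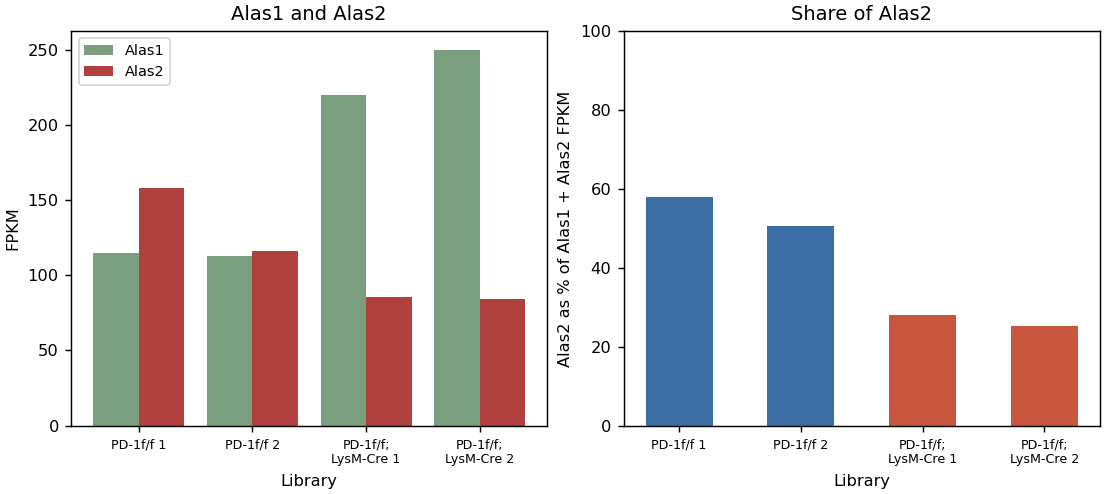
Left, FPKM of Alas1 (green) and Alas2 (red) in each library. Right, Alas2 as a percentage of the summed FPKM of both, from 50.8% to 58.0% in the blue wt libraries and from 25.2% to 28.0% in the red cko libraries.

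Alad, the first cytosolic enzyme, had lower values in cko without passing the test. The gene, on chr4:62509169-62519918 (minus strand), stood at 44.2 FPKM in wt1, 50.9 in wt2, 43.3 in cko1 and 39.8 in cko2. The nearest libraries of the groups differed by less than their counting intervals (42.3 to 46.3 and 41.1 to 45.5 FPKM). Its log2 fold change was -0.19 (95% interval -0.56 to 0.19, unadjusted p = 0.259 from limma). With erythroid and hepatocyte genes removed and the libraries scaled to the same summed FPKM it was 0.018. This was the only change of direction found for a member.

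Uros and Urod, which act on the ring, lay lower with the groups apart. Uros spans chr7:133686243-133710072 and Urod chr4:116989965-116994413, both on the minus strand. Uros stood at 4.22 FPKM in wt1, 3.63 in wt2, 2.36 in cko1 and 2.36 in cko2, from 335, 244, 158 and 149 reads. The counting intervals of the wt libraries (3.78 to 4.69 and 3.18 to 4.11 FPKM) did not reach those of the cko libraries (2.00 to 2.76 and 1.99 to 2.77 FPKM). The log2 fold change of Uros was -0.55 (95% interval -1.03 to -0.072, adjusted p = 0.265 from limma), and on recovered reads with voom it was -0.73. Urod stood at 67.0 FPKM in wt1, 53.7 in wt2, 44.0 in cko1 and 43.2 in cko2. Its log2 fold change was -0.45 (95% interval -0.86 to -0.048, adjusted p = 0.271 from limma).

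Of the enzymes that finish the porphyrin ring, Cpox was the second member above wt. It lies on chr16:58670208-58680391 (plus strand) in the files. It stood at 2.25 FPKM in wt1, 3.35 in wt2, 4.003 in cko1 and 3.65 in cko2. wt2 (2.90 to 3.85 FPKM) overlapped both cko libraries (3.51 to 4.54 and 3.17 to 4.19 FPKM) in counting error. The reads behind these values were at least 159, 201, 239 and 206, since a gene length that is a multiple of 3186 bases would give multiples of them. The log2 fold change of Cpox was 0.36 (95% interval -0.20 to 0.92) and 0.15 without wt1. In GENCODE M21 its exons share 204 bases (3.06%) with Gpr15 on the other strand. Gpr15 stood at 0.768 and 2.27 FPKM in wt1 and wt2 and at 5.13 and 9.60 in cko1 and cko2. That annotation gives Cpox another position than the files do, so whether the shared bases were counted for Cpox is not known. The part of Gpr15 reads in the Cpox values was not tested. Ppox, on chr1:171275990-171281186 (minus strand), stood at 13.2 FPKM in wt1, 15.3 in wt2, 13.1 in cko1 and 10.1 in cko2, a log2 fold change of -0.29 (95% interval -0.76 to 0.19). Its wt1 and cko1 were nearly equal. Of the exon bases of Ppox 17.5% are shared with B4galt3 on the other strand, which stood at 4.12 and 8.22 FPKM in wt1 and wt2 and at 12.2 and 5.40 in cko1 and cko2.

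Fech, the last enzyme, stood at 82.7 FPKM in wt1, 64.6 in wt2, 52.7 in cko1 and 48.2 in cko2. All 4 libraries stood in the same order as for Alas2, Uros and Urod. The log2 fold change was -0.53 (95% interval -0.96 to -0.098, adjusted p = 0.252 from limma). Fech amounted to 0.523 and 0.557 of the Alas2 FPKM in wt and to 0.616 and 0.572 in cko (exact permutation p = 0.333, the smallest possible). Both cko libraries were above both wt libraries in this ratio, by far less than they were below them in the ratio of Alas2 to Alas1.

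Over the 8 members, 6 were lower and 2 higher in cko, where 39.6% of all tested genes were lower and 60.4% higher. For all 8 the libraries of one group lay apart from those of the other, and for 7 after quantile normalization. With erythroid and hepatocyte genes removed and the libraries scaled to the same summed FPKM, 6 lay apart. Of all tested genes, 51.6% lay apart, 33.6% upward and 18% downward. An unadjusted p under 0.05 was reached by 5 members, Alas1 upward and Alas2, Fech, Uros and Urod downward, against 16.4% of all tested genes (11.4% upward, 4.95% downward). This count was 1 without wt1, 2 without cko2, 3 without cko1 and 4 without wt2. No member reached |log2FC| of at least 1 with an adjusted p under 0.05, and of all tested genes 0% did (limma, 1768 genes at an unadjusted p under 0.05). With voom on recovered reads 2 genes did, neither a member. Adjusted p-values of the members ran from 0.183 to 0.550 in limma. The median log2 fold change of the members was -0.37, against 0.09 over all tested genes. The plot of group differences shows 5 intervals that leave out 0.

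**Figure D3:**
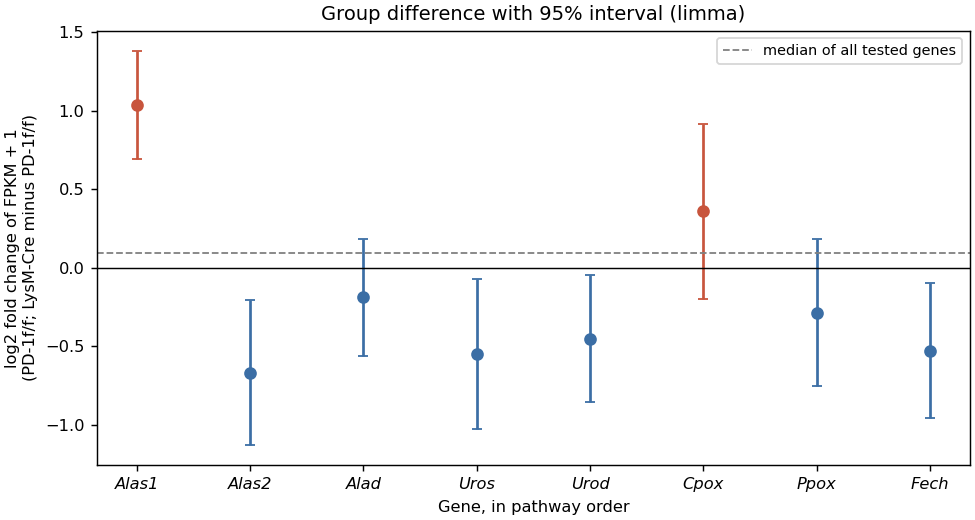
log2 fold change of FPKM + 1 between the groups for each gene in pathway order, with 95% intervals from limma; the dashed line is the median of all tested genes (0.09). Alas1 (1.04) stands above 0 and Alas2, Uros, Urod and Fech lie below it with intervals that do not reach 0.

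Genes that work with the pathway lay on both sides of 0. Of 33 partner genes, among them those for iron uptake, mitochondrial iron and heme transport, iron-sulfur supply, heme use and Alas1 transcription, 31 were found and 27 tested. Of these, 13 were higher and 14 lower in cko, where 60.4% of all tested genes were higher and 39.6% lower. Their median log2 fold change was -0.06, against 0.09 over all tested genes. An unadjusted p under 0.05 was reached by 2, both downward, against 16.4% of all tested genes (11.4% upward, 4.95% downward). The 2 genes were Hscb and Isca2, which serve iron-sulfur cluster assembly. Hscb stood at 6.62 and 5.64 FPKM in wt1 and wt2 and at 3.71 and 2.44 in cko1 and cko2 (log2 fold change -0.82, standard error 0.23, adjusted p = 0.222 from limma). Without wt1 there were 0 such partner genes, without wt2 there were 4, and without either cko library 1. Isca2 stood at 52.2 and 43.1 FPKM in wt1 and wt2 and at 34.3 and 33.9 in cko1 and cko2 (log2 fold change -0.47, standard error 0.16, adjusted p = 0.257 from limma).

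Transferrin receptor and mitoferrin-1, an iron carrier of the inner mitochondrial membrane, did not separate the groups. Tfrc, the receptor through which red cell precursors take up iron, stood at 28.7 FPKM in wt1, 16.8 in wt2, 14.04 in cko1 and 18.5 in cko2. Slc25a37, or mitoferrin-1, stood at 12.7 and 15.02 FPKM in wt1 and wt2 and at 15.1 and 12.7 in cko1 and cko2, with a 95% interval of the log2 difference from -0.43 to 0.44. Abcb10, which partners it in the same membrane, stood at 10.5 and 6.14 FPKM in wt1 and wt2 and at 6.47 and 6.46 in cko1 and cko2. Both Tfrc and Abcb10 were highest in wt1, and wt2 lay between the cko libraries for Tfrc and below both for Abcb10. Slc25a28, or mitoferrin-2, had both cko libraries above both wt libraries. It stood at 2.65 and 3.93 FPKM in wt1 and wt2 and at 4.83 and 4.22 in cko1 and cko2 (unadjusted p = 0.144 in limma). Tmem14c, a porphyrinogen transporter, was the most abundant partner with 177 and 174 against 209 and 217 FPKM and an unadjusted p of 0.0771 in limma. Ppargc1a, a coactivator of Alas1, was listed at 0 in both wt libraries and had 0.0728 and 0.223 FPKM in cko, and it was too low to be tested. Nrf1, another activator, stood at 6.98 and 7.97 FPKM in wt1 and wt2 and at 9.003 and 7.03 in cko1 and cko2.

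Markers of red cells were mostly lower in cko, as were 6 of the 8 members. Of 22 tested erythroid genes 21 were lower in cko, 15 with the libraries apart and 11 with an unadjusted p under 0.05, and their median log2 fold change was -0.60. Of all tested genes 39.6% were lower, 18% apart downward and 4.95% past that p downward. Their summed FPKM was 4126 and 2601 in wt and 1632 and 1733 in cko, in which wt1 was again highest. Hbb-bs, the adult beta-globin, stood at 1007 and 653 FPKM in wt1 and wt2 and at 358 and 424 in cko1 and cko2 (log2 fold change -1.06). Set against the 4 adult globin genes, Alas2 amounted to 47.5 and 55.8 FPKM per 1000 FPKM of globin in wt and 70.0 and 63.8 in cko (exact permutation p = 0.333, the smallest possible). The share of red cell precursors in these libraries was not measured, and in bulk RNA fewer cells of a type and less RNA per cell cannot be told apart. In an alternative setting the erythroid and hepatocyte genes were removed and the libraries were then scaled to the same summed FPKM. Alas2 stood at -0.46 (unadjusted p = 0.0410 in limma) and Alas1 at 1.25. The median of all genes moved from 0.09 to 0.27, and 2 members rather than 5 had an unadjusted p under 0.05. Before removal the summed FPKM of all genes was 491983 and 457127 in wt and 412778 and 403900 in cko. The removed genes were a small part of it, so the setting mainly made the totals equal. The effect of removal alone was not tested. The part of the red cell markers in the lower values of Alas2, Uros, Urod and Fech was not tested.

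Markers of other cells were listed beside Alas1, which is not confined to red cells. For comparison, 60.4% of all tested genes were higher and 39.6% lower in cko. An unadjusted p under 0.05 in limma was reached by 11.4% upward and 4.95% downward. Hepatocyte genes, whose cells also use Alas1, were low, with a summed FPKM of 99.9 and 169 in wt and 73.2 and 91.2 in cko, and 11 of 13 tested genes were lower in cko, Apoa1 (log2 fold change -1.18) and Ahsg (-0.81) with an unadjusted p under 0.05. Myeloid genes were mixed, with 9 of 15 higher, about the share of all tested genes, and 6 lower. Lyz2, S100a8, S100a9 and Ly6g were lower with an unadjusted p under 0.05, and Spi1, Cd68, Csf3r and Elane were higher. The summed myeloid FPKM was 117639 and 94670 against 54483 and 48500, of which Lyz2, S100a8 and S100a9 made up 95.5% to 98.4%. Lyz2 is the gene whose promoter drives Cre in the cko mice. The other 12 genes summed to 1904 and 2020 FPKM in wt1 and wt2 and to 2447 and 2169 in cko1 and cko2, the opposite direction. Of 13 tested macrophage genes 7 were higher and 6 lower, and their summed FPKM was 518 and 369 against 450.3 and 824. Hmox1, a member of that list that breaks heme down, stood at 84.3 and 68.7 FPKM in wt1 and wt2 and at 135 and 257 in cko1 and cko2 (log2 fold change 1.28, adjusted p = 0.214 from limma). Of the megakaryocyte genes 2 of 7 were tested and both overlapped between the groups. No gene of these lists was at 0 in all 4 libraries, Hnf4a was at 0 in both cko libraries, and their part in the Alas1 result was not tested.

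**Figure D4:**
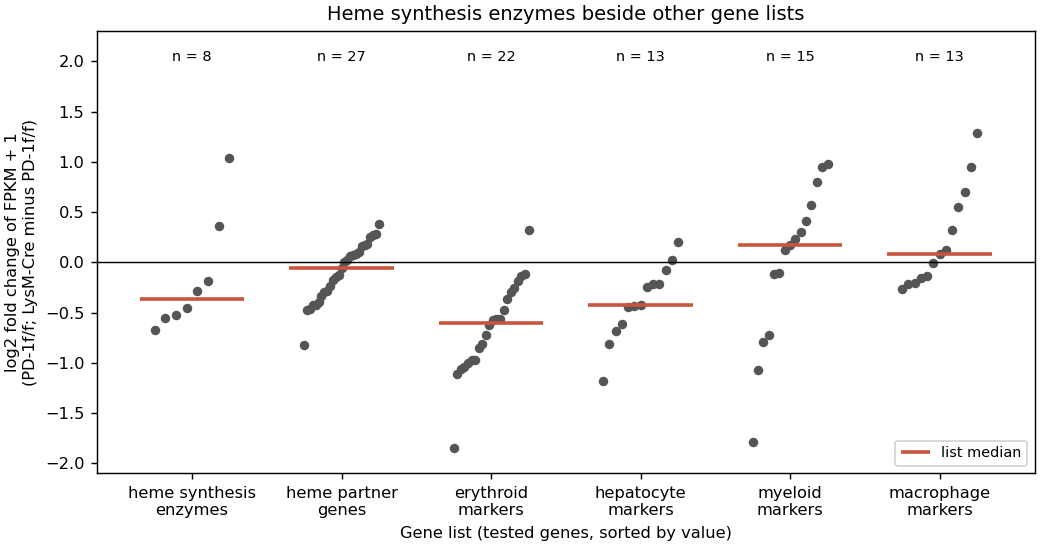
log2 fold change of each tested gene (points, sorted within a list) with the list median (red line) for the heme synthesis enzymes, their partner genes and 4 marker lists. The medians are -0.37 for the enzymes, -0.06 for the partners and -0.60 for the erythroid markers, and Alas1 at 1.04 is the highest enzyme.

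Over the 4 libraries, the genes whose values moved most like those of Alas2 were Abcg2, Cenpx, Cox7b, Pdcd10 and 4732487G21Rik. Likeness was the Euclidean distance between log2(FPKM + 1) values centred on the mean of each gene, which was 0.0503 for Abcg2 and 0.0904 for 4732487G21Rik. Abcg2, a membrane transporter, stood at 6.43 and 4.66 FPKM in wt1 and wt2 and at 3.21 and 3.01 in cko1 and cko2. Among the members, Fech was nearest to Alas2 at rank 41 (distance 0.172), followed by Uros at rank 95 and Urod at rank 112, while Alas1 stood at rank 10105. The genes nearest to Alas1 were App, Tmem110, Gab2, Gm45822 and Mcam, at distances of 0.0874 to 0.116. App, the amyloid precursor protein gene, stood at 24.4 and 24.6 FPKM in wt1 and wt2 and at 51.7 and 55.5 in cko1 and cko2. No member was near Alas1, the closest being Cpox at rank 2306. With 4 points per gene such a ranking describes these libraries and is no test.

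**Figure D5:**
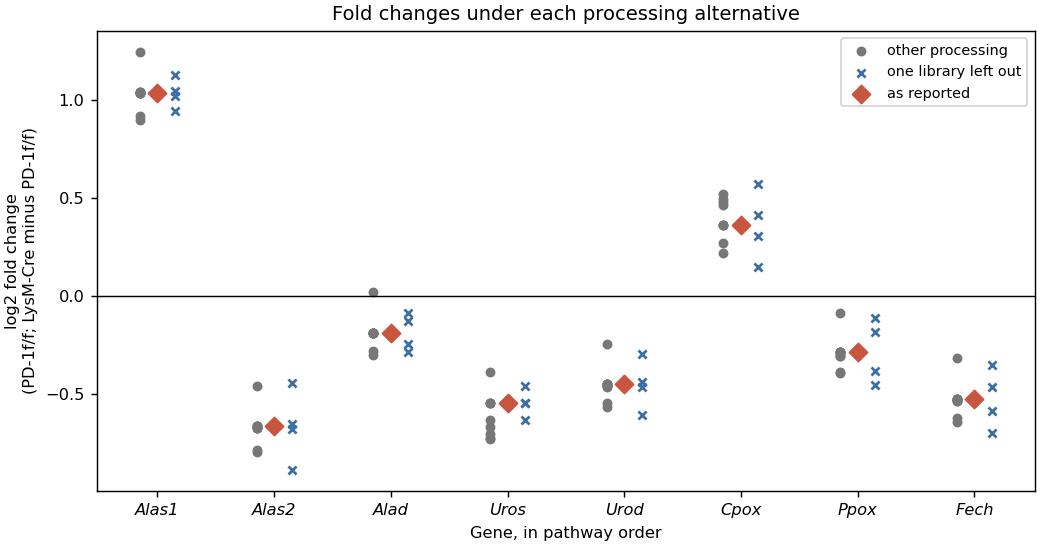
log2 fold change of each member as reported (red diamonds), under 10 other ways of processing (grey) and with one library left out (blue crosses). Alas1 stays between 0.90 and 1.25 and Alas2 between -0.89 and -0.45, and Alad is the one gene that crosses 0, at 0.018.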

How the data were processed

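RNA-seq of 4 libraries labelled as myeloid cells was used, 2 per group, grouped by their titles. Each library has a table of FPKM per gene that the authors deposited, with Ensembl identifiers and positions, and their methods call them RPKM. The submitters' processing notes list Bowtie2 2.2.3, TopHat2 2.0.12, HTSeq 0.6.0 and the build mm9 without roles. The positions in the files are those of GRCm38, and 92.61% were identical to GENCODE M21. Strand setting and filters are not given in the sources used here. FPKM depend on the total of a library, so that a change in the highest genes shifts all others. The 10 highest genes held 46.6% and 42.3% of the summed FPKM in wt1 and wt2 and 33.1% and 29.4% in cko1 and cko2. This share thus differed between the groups, and its part in the fold changes was not tested.

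Library totals were worked out from single-exon genes, whose FPKM were whole multiples of 1 read within 0.05 for 99.94% to 99.97% of values, and reads of 91.55% of genes were recovered from exon lengths. For Cpox and Fech the shortest length that gave whole reads within 0.02 in all libraries was used. Exact 95% binomial bounds (Clopper-Pearson) were put on the reads, for counting error alone.

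Groups were compared with limma 3.58.1 in R 4.3.3 (moderated by eBayes, trend set) on log2(FPKM + 1). Genes whose mean FPKM reached 1 were tested, and no covariate was used. Thresholds were those of the study's methods (|log2FC| of at least 1, adjusted p under 0.05) and results (|log2FC| above 1, p under 0.01). Fold changes carry 95% intervals of that fit. Single values were tested by exact permutation (scipy 1.17.1). The fit was tested on simulated reads. Members and lists were chosen with earlier results of these data known. Genes named are the members, the 5 nearest to each synthase, Tfrc, Slc25a37, Abcb10, partner genes with p under 0.05, genes overlapping a member, Pdcd1, and Hbb-bs, Alb, Apoa1, Itgam and Lyz2 where a result turns on them. Ireb2, Aco1, Slc25a28, Tmem14c, Ppargc1a, Nrf1, Hmox1 and the myeloid genes with p under 0.05 were named after their values were seen. So were Hnf4a, Ahsg, Xist and Ddx3y. Where Itgam had 2 rows, the higher was used. Genes of the lists with no row were not analysed here, and some genes named by the rule are not reported here. Alternatives were pseudocounts of 0.1 and 0.01, no filter or one at a mean of 5 FPKM, and scaling by median-of-ratios or by quantiles. Another removed the erythroid and hepatocyte genes and scaled the libraries to the same summed FPKM. Others were no trend, a replicate block, voom on recovered reads (mean 10 or more), and leaving out each library in turn. Python 3.11.15 and matplotlib 3.10.9 were used for the rest.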

Additional observations from a re-analysis of the deposited data

How the results depend on the processing

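All 8 members had an adjusted p above 0.05 under all 14 alternatives that gave them a value (Uros and Cpox had none with a minimum mean of 5 FPKM), and 0 members passed the threshold of the methods in any. Directions held except for Alad, at 0.018 with erythroid and hepatocyte genes removed and the libraries scaled to the same summed FPKM. This rescaling moved the median of all genes from 0.09 to 0.27. That setting also gave a member median of -0.17, a partner median of 0.13 and 2 members with p under 0.05. Past |log2FC| above 1 and p under 0.01 there were 0 members after median-of-ratios or quantile scaling, which moved the median of all genes to -0.0056 and -0.020 and changed the 203 higher and 44 lower genes to 142 and 71, and 148 and 73. Leaving out a library gave 0 to 1 such members, 1 to 4 members with p under 0.05, and 0 to 4 partner genes with p under 0.05, of which there were 4 without wt2 and 0 without wt1, where 845 genes in all had p under 0.05. With the replicate block 3 members and 1 partner gene had p under 0.05, and with a minimum mean of 5 FPKM 1 partner gene, where fewer genes were tested. The groups lay apart for 6 to 8 members. The replicate numbers are not stated to pair libraries, and the differences between replicates correlated at -0.163 between the groups. The causes of these shifts were not tested. Leave-one-out fits treat the lone library of a group as varying like the other group. Uros and Cpox, at 149 to 335 and at least 159 reads, are the members whose precision depth limits most.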
